A study of Arabidopsis thaliana with 8 samples.

Results

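The genes described are 9 cell-surface immune receptor genes of Arabidopsis thaliana: the receptor-like protein genes RLP23 (AT2G32680), RLP30 (AT3G05360), RLP32 (AT3G05650), RLP42 (AT3G25020) and RLP51 (AT4G18760), the adaptor kinase gene SOBIR1 (AT2G31880), and BIR1 (AT5G48380), BIR2 (AT3G28450) and BIR3 (AT1G27190), which encode receptor-like kinases that bind the co-receptor BAK1. They were chosen by gene identifier, and 9 of 9 stood in every deposited table, out of 18333 genes in any table. Untreated Col-0 plants were grown for 28 days, and rosette RNA gave 8 libraries, 2 per genotype. The genotypes were wild type (WT), the pbl19 mutant with the transgene pPBL19C3A-GFP-HA (the PBL19C3A line), and the sid2 pbl19 and eds1 pbl19 mutants, each carrying pPBL19:PBL19C3A-GFP-HA (the sid2 line and the eds1 line). The PBL19 promoter drives the transgene in all 3, per the labels' protocols. All transgenic groups thus share the pbl19 mutation and a PBL19C3A transgene, while WT has neither, and no library of a sid2, eds1 or pbl19 mutant without the transgene was analysed here. The labels give constitutive immunity as the phenotype of the PBL19C3A and sid2 lines, and a wild-type phenotype for the eds1 line. They do not say whether the insertion is the same in the 3 lines, nor how many plants entered a library. The series' design text speaks of 1 biological replicate, so the tests see no more than the variation of same-genotype libraries, possibly technical.

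Receptor-like proteins carry leucine-rich repeats outside the cell and a transmembrane segment, but no kinase domain. Those that sense microbial patterns signal through SOBIR1, a receptor-like kinase with which they are thought to form a standing complex. They recruit BAK1 or its relatives once a pattern is bound. RLP23 binds a peptide of necrosis-inducing (NLP) proteins, RLP30 mediates the response to a small secreted fungal protein, RLP32 to a bacterial translation initiation factor and RLP42 to fungal polygalacturonases. RLP51, also named SNC2, is known from a gain-of-function mutant with constant defence. BIR1, BIR2 and BIR3 bind BAK1 and hold back signalling: plants without BIR1 show cell death that depends partly on SOBIR1, and BIR2 and BIR3 keep BAK1 away from ligand-binding receptors. PBL19 is a receptor-like cytoplasmic kinase, SID2 is the isochorismate synthase ICS1 of salicylic acid synthesis, and EDS1 with its partner PAD4 is a hub of immune signalling that also acts downstream of RLP23.

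Total counts ranged from 37373977 to 51202472 per library. PBL19 transcripts, in which transgene and native gene cannot be told apart, stood at 7.40 and 10.4 FPKM (fragments per kilobase of transcript, scaled to library depth) in WT, 2197 and 1637 in the PBL19C3A line, then 626 and 956 for the sid2 libraries, and 65.1 and 37.9 in the eds1 line, for libraries 1 and 2. The lines thus also differ in transgene transcript, and the part of that difference in the results was not tested. EDS1 stood at 4.99 and 3.21 FPKM in the eds1 line against 8.03 and 13.4 in WT, and ICS1 at 5.02 and 4.45 in the sid2 line against 5.81 and 8.78 in WT, so both mutated genes still had counted reads. As a check of the tissue label, 5 mesophyll markers (RBCS1A, LHCB1.1, LHCB2.1, CA1 and RCA) summed to 27749 to 29489 FPKM in WT, 18096 to 19941 in the PBL19C3A line, 22983 to 23523 in the sid2 line and 24654 to 28012 in the eds1 line, and the tables list none of 4 flower markers. The summed guard cell markers (4 genes) stood at 32.0 to 34.8 FPKM in WT, 13.5 to 17.4 in the PBL19C3A line, 22.5 to 24.2 in the sid2 line and 29.4 to 35.8 in the eds1 line. For the single phloem marker SUC2 the values were 106 to 109, 70.7 to 79.2, 74.7 to 79.6 and 89.0 to 112 in the same order. The epidermis markers (2 genes) summed to 149 to 162 FPKM in WT, 99.3 to 115 in the PBL19C3A line, 108 to 120 in the sid2 line and 140 to 191 in the eds1 line. The root markers (PYK10 and PHT1;1) summed to 102 to 124, 67.2 to 68.6, 127 to 149 and 134 to 153 FPKM in the same order. PHT1;1, at 1.35 and 1.55 FPKM in WT, stood at 9.29 and 5.18 in the sid2 line (log2 rise 2.25 ± 0.57, edgeR adjusted p = 0.0370). PYK10, by far the more abundant, overlapped between these groups and had no call (0.17 ± 0.14, edgeR adjusted p = 0.444). All 5 sums were lower in both PBL19C3A libraries than in both WT libraries, a position held by 30.4% of all single genes, with 40.2% above. The mesophyll, guard cell, phloem and epidermis sums were also lower in both sid2 libraries than in both WT libraries, while the root sum was higher. The part of these markers in the results was not tested. In such whole-rosette RNA, fewer cells of a type and less RNA per cell cannot be told apart.

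The first comparison asks what the PBL19C3A line expresses differently from WT. Of the 9 genes, 7 rose (RLP23, SOBIR1, RLP32, BIR1, RLP42, RLP30 and BIR2), 0 fell and 2 did not pass the test (RLP51 and BIR3). Over all 18048 genes tested, 36.2% passed the threshold of an adjusted p of 0.05, with 21.4% higher and 14.9% lower. The median log2 fold change of the 9 genes was 2.1, beside 0.02 over all genes tested. Tests were edgeR's quasi-likelihood test with Benjamini-Hochberg adjustment over all genes, and ± after a log2 fold change is its standard error.

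**Figure D1:**
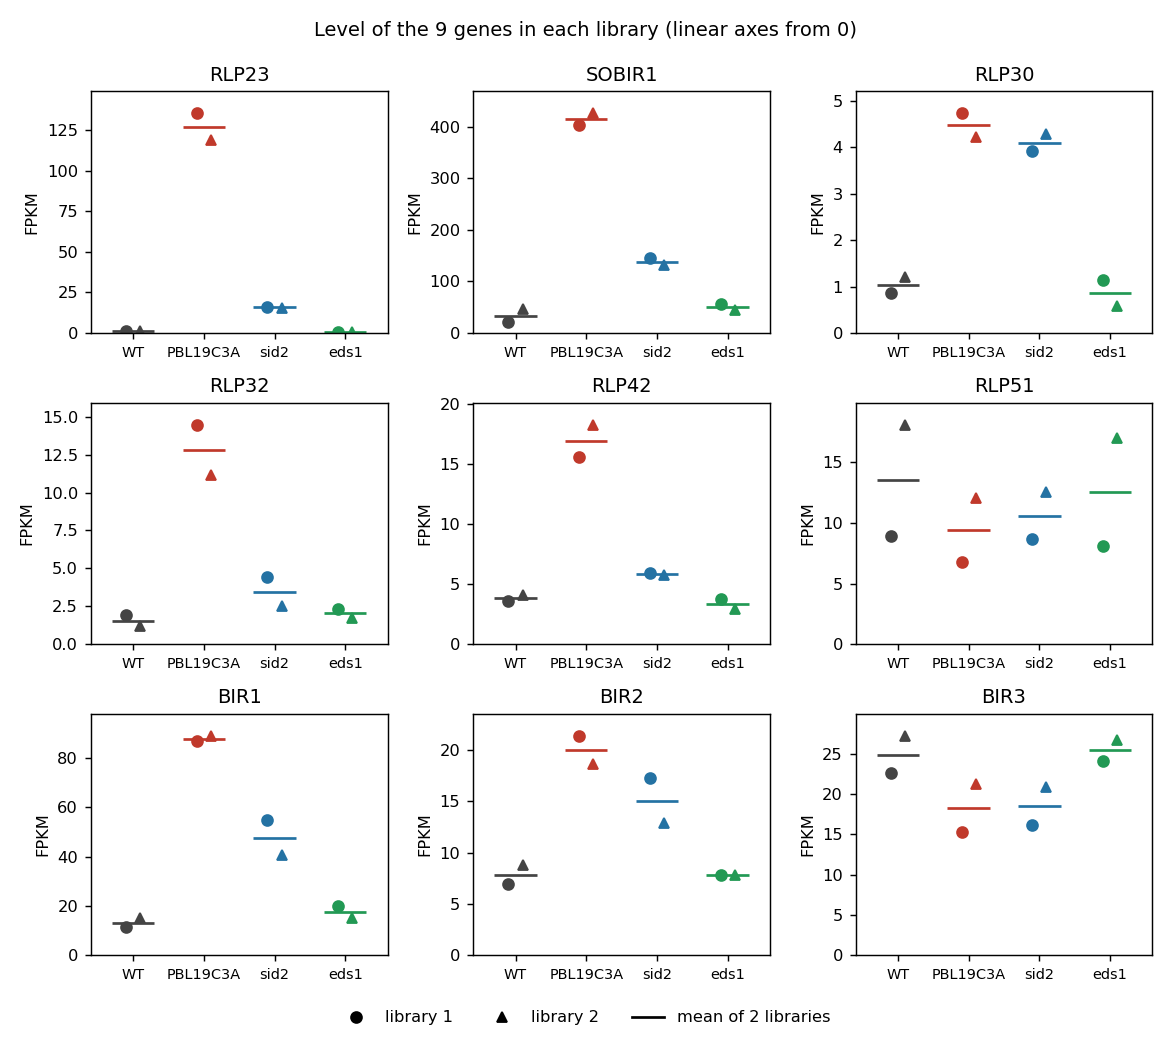
FPKM of each of the 9 genes (vertical axes, linear from 0) in libraries 1 (circles) and 2 (triangles) of the 4 genotypes, with the mean of 2 libraries as a bar. RLP23 reached 135 and 119 FPKM in the PBL19C3A line and stayed under 1.4 in WT, whereas the genotypes overlapped for RLP51.

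Among the ligand-binding receptors, RLP23 changed most. Its level was 0.941 and 1.37 FPKM in WT (131 and 189 reads) and 135 and 119 FPKM in the PBL19C3A line (18750 and 13088 reads), in libraries 1 and 2. The groups did not overlap, as was so for 40.2% of all genes in the higher direction and 30.4% in the lower, and the log2 rise was 6.73 ± 0.26, or 106-fold (edgeR adjusted p = 4.11e-05). RLP32 stood at 1.89 and 1.17 FPKM in WT against 14.5 and 11.1 in the PBL19C3A line. Its rise was 3.02 ± 0.35 on the log2 scale (edgeR adjusted p = 0.00089). RLP42, whose counts are uncertain because it shares sequence with RLP40 and, to a smaller extent, RLP39 and RLP41, rose less steeply from a higher level. It stood at 3.64 and 4.06 FPKM in WT against 15.6 and 18.3 in the PBL19C3A line, a rise of 2.1 ± 0.16 (edgeR adjusted p = 0.000175). RLP30, the lowest of the 9 genes in the PBL19C3A line, went from 0.869 and 1.20 FPKM to 4.73 and 4.23, a log2 rise of 2.06 ± 0.31 (edgeR adjusted p = 0.00234).

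RLP51 was the receptor gene without a call. It stood at 8.94 and 18.1 FPKM in WT against 6.80 and 12.1 in the PBL19C3A line, so the groups overlapped, and the log2 difference was -0.56 ± 0.48 with a 95% interval of -1.69 to 0.57 (edgeR adjusted p = 0.403). In the sid2 line it stood at 8.64 and 12.5 and in the eds1 line at 8.07 and 17.0. In each of the 4 genotypes the library numbered 2 was the higher for RLP51, and so it was for BIR3, as the plot of levels by library shows.

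SOBIR1, the adaptor of pattern-sensing receptor-like proteins, was the most abundant of the 9 genes in the PBL19C3A, sid2 and eds1 lines. It stood at 20.8 and 46.7 FPKM in WT, where its libraries differed widely, and at 404 and 426 in the PBL19C3A line. The lowest PBL19C3A library lay far above the highest WT library, and the log2 rise was 3.58 ± 0.36 (edgeR adjusted p = 0.000492).

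The BAK1-binding kinases differed among themselves. BIR1 went from 11.3 and 15.0 FPKM in WT to 86.6 and 89.0 in the PBL19C3A line, a log2 rise of 2.70 ± 0.21 (edgeR adjusted p = 0.000206). BIR2 went from 6.91 and 8.82 to 21.4 and 18.7 FPKM, a rise of 1.31 ± 0.18 (edgeR adjusted p = 0.00175). BIR3, the highest of the 3 in both WT libraries, stood at 22.6 and 27.3 FPKM in WT against 15.2 and 21.2 in the PBL19C3A line. A fit with a term for the library number (a replicate block) called BIR3 lower. In the main fit its log2 difference of -0.49 ± 0.21 did not pass the test (edgeR adjusted p = 0.102). Without library 2 of the PBL19C3A line it was -0.76 and passed (edgeR adjusted p = 0.0458).

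**Figure D2:**
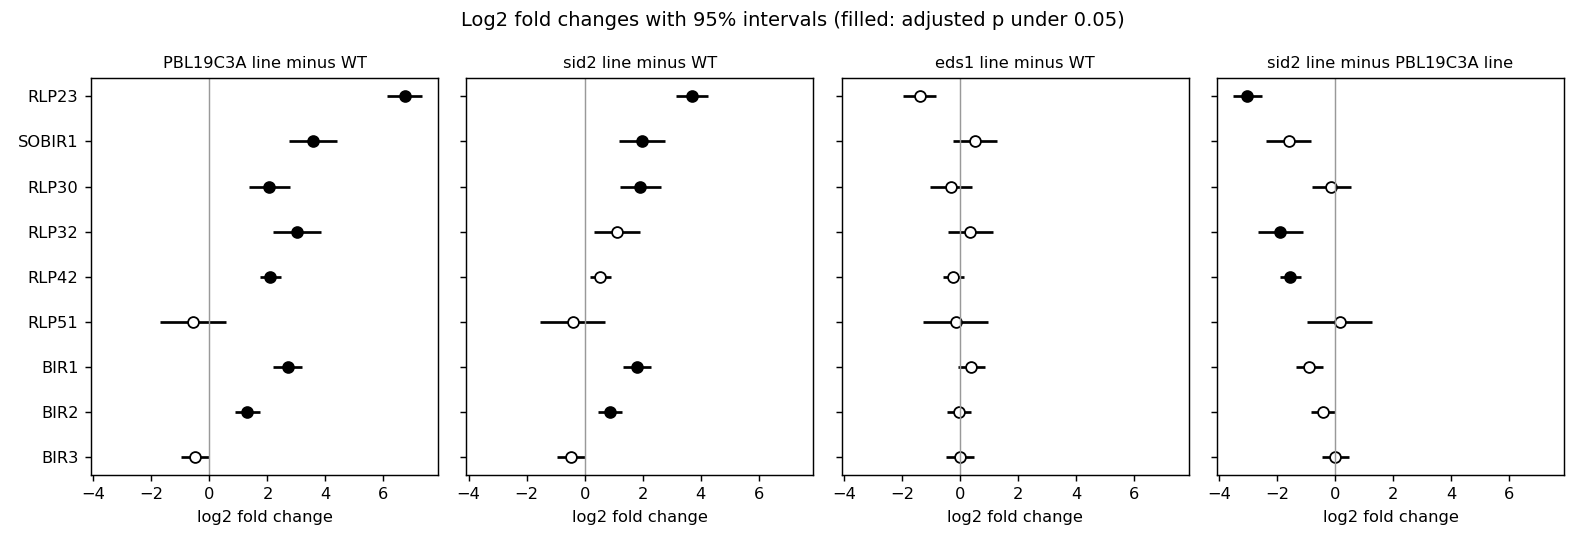
Log2 fold change of each gene with its 95% interval in 4 comparisons, filled where the adjusted p was under 0.05. The PBL19C3A line minus WT ran from 6.73 for RLP23 to -0.56 for RLP51, and no gene is filled for the eds1 line minus WT.

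The promoters were read because 7 of the 9 genes rose together. W-boxes, the letters TTGACC or TTGACT that WRKY transcription factors bind, were searched on both strands in the 250 bases before each annotated gene start, together with TGACG, the core bound by TGA factors, and are given for the genes other than SOBIR1. The sequences and starts are RefSeq's for TAIR10.1, whereas the submitters' processing notes name TAIR10 and the deposited tables give no coordinates. RLP23 and RLP30 held 2 W-boxes each, RLP51, BIR1 and BIR2 held 1 each, and RLP32, RLP42 and BIR3 held 0. The annotated span of RLP30 overlaps AT3G05350 on the same strand, with 0 shared exon bases. Whether the RLP30 window lies in that gene was not checked. Among the 27443 protein-coding genes searched in the same way, 28.4% held at least 1. TGACG was in 0 of these 8 windows and in 18.6% of all. A match is a run of letters and not a shown binding site, and genes with and without one are found on both sides: RLP32 and RLP42 rose without one, and RLP51 holds one and did not pass the test. The window of BIR1 (chr5:19607148-19607397, minus strand) and the 30 bases around each W-box of RLP23 (chr2:13862760-13862789 and chr2:13862697-13862726, minus strand) are shown 5′ to 3′ along the gene, as those of the most raised BIR gene and of the most raised of the receptor-like protein genes described. Capitals mark the W-box on either strand, so that GGTCAA and AGTCAA are W-boxes of the opposite strand. The annotated start of RLP23 is its start codon, so its distances from the transcription start are not known here.
BIR1: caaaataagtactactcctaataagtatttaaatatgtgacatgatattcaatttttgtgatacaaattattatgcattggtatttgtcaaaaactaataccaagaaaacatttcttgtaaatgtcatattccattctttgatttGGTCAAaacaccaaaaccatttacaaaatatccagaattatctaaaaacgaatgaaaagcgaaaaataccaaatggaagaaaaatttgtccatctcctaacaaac
RLP23, first W-box: gcccttagctgcTTGACCatacttttgttc
RLP23, second W-box: taacattttctgAGTCAAattgtgcaaaac

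The sid2 line asks how much of these levels is seen when salicylic acid synthesis through ICS1 is impaired. Against the PBL19C3A line, 3 of the 9 genes were lower (RLP23, RLP42 and RLP32), 0 were higher and 6 did not pass the test, where 2.63% of all genes passed, 1.98% lower and 0.651% higher. RLP23 stood at 15.7 FPKM in both sid2 libraries (2399 and 2214 reads), between WT and the PBL19C3A line and apart from both. Its log2 difference from the PBL19C3A line was -3.03 ± 0.22 (edgeR adjusted p = 0.00253), and that from WT was 3.70 ± 0.23 (edgeR adjusted p = 0.000241). RLP42 stood at 5.90 and 5.76 FPKM in the sid2 line, a difference of -1.56 ± 0.15 from the PBL19C3A line (edgeR adjusted p = 0.00773). Without library 2 of the PBL19C3A line, or without either sid2 library, the adjusted p of RLP42 was 0.0640, 0.0527 and 0.0557. RLP32 stood at 4.42 and 2.49 FPKM, a difference of -1.90 ± 0.33 (edgeR adjusted p = 0.0356). This call was lost when any 1 library of either line was left out (adjusted p 0.0637 to 0.176).

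RLP30 was not called between these lines. At 3.91 and 4.28 FPKM in the sid2 line its libraries overlapped those of the PBL19C3A line, with a log2 difference of -0.14 ± 0.29 and a 95% interval of -0.82 to 0.53 (edgeR adjusted p = 0.844). Its level in the sid2 line was above WT by 1.92 ± 0.30 (edgeR adjusted p = 0.00665). That call was lost without library 1 of WT (adjusted p = 0.0533). The ratio of RLP32 to RLP30 in FPKM was 3.06 and 2.64 for PBL19C3A libraries and 1.13 and 0.583 for sid2 libraries.

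SOBIR1, BIR1 and BIR2 lay below both PBL19C3A libraries in both sid2 libraries without being called, a position held by 24.7% of all genes, with 24.6% above. SOBIR1 stood at 144 and 131 FPKM in the sid2 line, with a log2 difference of -1.61 ± 0.33 and an interval of -2.38 to -0.83 (edgeR adjusted p = 0.0542). DESeq2 called it (-1.60, adjusted p = 2.96e-05), as did edgeR on the libraries of the 2 lines alone (adjusted p = 0.00660). BIR1 stood at 54.6 and 40.6 FPKM, a difference of -0.90 ± 0.20 that edgeR did not call (adjusted p = 0.0659) and DESeq2 did (adjusted p = 0.00175). BIR2 stood at 17.2 and 12.9 FPKM (log2 difference -0.43 ± 0.18, edgeR adjusted p = 0.258). BIR3, at 16.1 and 20.9 FPKM, had a log2 difference of 0.00 ± 0.20 with an interval of -0.48 to 0.48 (edgeR adjusted p = 0.994). RLP51 overlapped as well, with a difference of 0.15 ± 0.48.

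Against WT, the sid2 line had 5 of the 9 genes higher (RLP23, SOBIR1, RLP30, BIR1 and BIR2), 0 lower and 4 without a call, beside 16.2% of all genes called, 12.1% higher and 4.05% lower. SOBIR1 was higher by 1.97 ± 0.33 (edgeR adjusted p = 0.00836) and BIR1 by 1.80 ± 0.20 (edgeR adjusted p = 0.00184). BIR2 was higher by 0.88 ± 0.18 (edgeR adjusted p = 0.0172), a call that was lost without library 1 of WT (adjusted p = 0.105), without library 1 of the sid2 line (0.0941) and in edgeR on the 4 libraries of the comparison alone (0.0512). RLP32 and RLP42 were above WT in every library pair, as were 36.9% of all genes (23.6% were below it), but missed the threshold in edgeR (log2 differences 1.11 ± 0.34 and 0.54 ± 0.15, adjusted p 0.0644 and 0.0517). DESeq2 called both (adjusted p 0.00735 and 0.0271). RLP51 and BIR3 had differences of -0.41 ± 0.48 and -0.49 ± 0.20 (edgeR adjusted p 0.605 and 0.153).

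The eds1 line asks the same of EDS1, with the caveat that its PBL19 transcript was lower than in the other transgenic lines. Against the PBL19C3A line, the 7 genes that were higher there than in WT were lower in the eds1 line, 0 were higher and RLP51 and BIR3 did not pass the test, where 28.2% of all genes passed, 16.2% lower and 12.0% higher. The libraries of all 7 lay apart, as for 33.8% of all genes in the lower direction and 33.1% in the higher. The PBL19C3A libraries are shared by both comparisons. RLP23 stood at 0.558 and 0.346 FPKM in the eds1 line (81 and 48 reads), a log2 difference of -8.11 ± 0.28 from the PBL19C3A line (edgeR adjusted p = 1.81e-05). SOBIR1 stood at 55.6 and 44.1 FPKM and BIR1 at 20.04 and 15.2, differences of -3.06 ± 0.35 and -2.32 ± 0.21 (edgeR adjusted p 0.00115 and 0.000436). RLP30 stood at 1.14 and 0.583 FPKM, RLP32 at 2.34 and 1.72, RLP42 at 3.77 and 2.94 and BIR2 at 7.86 in both libraries. These genes differed from the PBL19C3A line by -2.38, -2.66, -2.34 and -1.35 on the log2 scale.

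Against WT, 0 of the 9 genes passed in the eds1 line with edgeR, beside 0.16% of all genes (0.0342% higher and 0.125% lower). RLP23 alone among them had an unadjusted p under 0.05. Its eds1 libraries lay below both WT libraries, as for 11.0% of all genes (20.4% lay above), with a log2 difference of -1.38 ± 0.24 and an interval of -1.96 to -0.81 (edgeR adjusted p = 0.206). DESeq2 called RLP23 and no other member (-1.39, adjusted p = 2.64e-05). For SOBIR1 the interval ran from -0.24 to 1.28 and for BIR1 from -0.08 to 0.85, so modest rises cannot be told from none at this spread. BIR3, at 24.1 and 26.8 FPKM, had a difference of -0.01 ± 0.20.

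Against the sid2 line, the eds1 line had 6 of the 9 genes lower (RLP23, SOBIR1, RLP30, RLP42, BIR1 and BIR2), 0 higher and 3 without a call, beside 9.4% of all genes called, 7.02% lower and 2.39% higher. The 6 lay below in every library pair, as did 29.1% of all genes, and 25.1% lay above. The log2 differences were -5.08 ± 0.25 for RLP23, -2.23 ± 0.31 for RLP30 and -1.42 ± 0.20 for BIR1 (edgeR adjusted p 0.000128, 0.00591 and 0.0066), and these calls held in every alternative run. SOBIR1 (-1.45 ± 0.33, edgeR adjusted p = 0.0361), RLP42 (-0.78 ± 0.15, adjusted p = 0.0217) and BIR2 (-0.92 ± 0.18, adjusted p = 0.021) each lost the call when some single libraries were left out. RLP32 missed the threshold (-0.75 ± 0.33, edgeR adjusted p = 0.21).

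**Figure D3:**
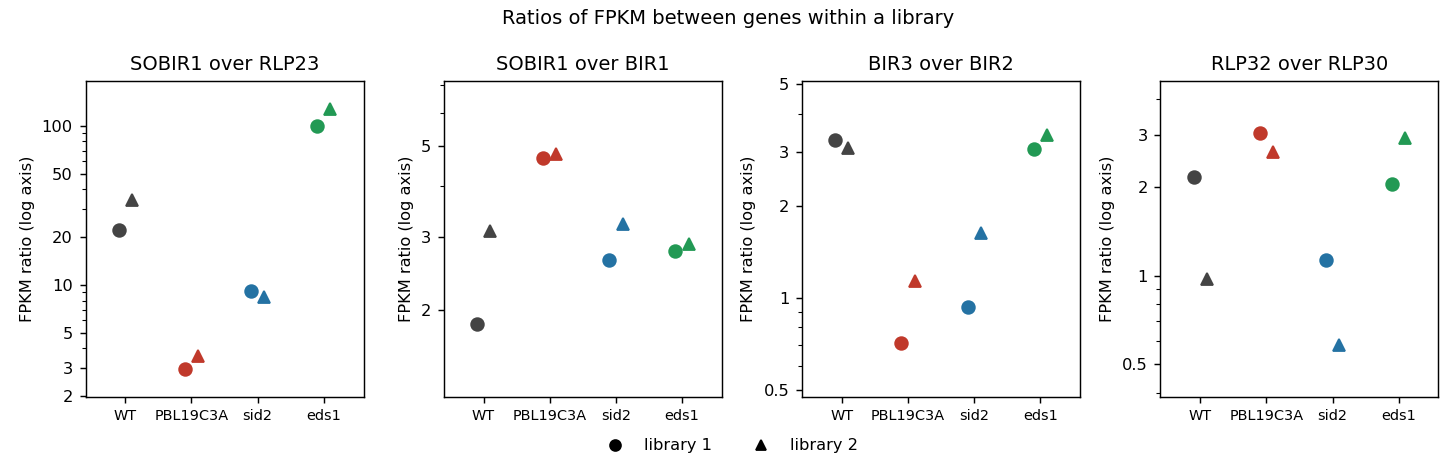
Ratio of FPKM between pairs of genes in each library (log axis; circles library 1, triangles library 2). SOBIR1 over RLP23 ran from 2.98 in a PBL19C3A library to 127 in an eds1 library, and BIR3 over BIR2 was above 3 in WT and the eds1 line and under 1.7 in the PBL19C3A and sid2 lines.

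Because the genes moved by different amounts, their proportions differed between lines, which is given here as a description in FPKM, a unit that corrects for length. SOBIR1 transcripts exceeded those of RLP23 by 22.1 and 34.0 times in WT, 2.98 and 3.59 times in the PBL19C3A line, 9.18 and 8.37 times in the sid2 line, and 99.7 and 127 times in the eds1 line. The adaptor was the more abundant in all 8 libraries, and its excess over this receptor was smallest where both were highest. The ratio of SOBIR1 to BIR1 was 1.85 and 3.11 in WT against 4.66 and 4.78 in the PBL19C3A line, without overlap. BIR3 over BIR2 was 3.27 and 3.09 in WT, 0.713 and 1.14 in the PBL19C3A line, 0.936 and 1.63 for the sid2 libraries, and 3.06 and 3.41 in the eds1 line. The ratio of SOBIR1 to BAK1, the co-receptor, was 1.38 and 2.45 in WT against 9.24 and 10.9 in the PBL19C3A line.

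By mean FPKM the order in WT was SOBIR1, BIR3, RLP51, BIR1, BIR2, RLP42, RLP32, RLP23 and RLP30. Of these neighbours, SOBIR1 and BIR3, RLP51 and BIR1, and the last 3 had overlapping libraries. In the PBL19C3A line the order was SOBIR1, RLP23, BIR1, BIR2, BIR3, RLP42, RLP32, RLP51 and RLP30, with overlap among BIR2, BIR3 and RLP42 and between RLP32 and RLP51. RLP23 thus moved from the eighth place to the second. In the sid2 line the order was SOBIR1, BIR1, BIR3, RLP23, BIR2, RLP51, RLP42, RLP30 and RLP32, with RLP23 overlapping BIR2 and RLP30 overlapping RLP32. In the eds1 line it was SOBIR1, BIR3, BIR1, RLP51, BIR2, RLP42, RLP32, RLP30 and RLP23, and BIR1 overlapped RLP51. SOBIR1 made up 26.7% and 37.8% of the summed FPKM of the 9 genes in WT, 57.4% and 59.2% in the PBL19C3A line, 53.3% in both sid2 libraries, and 45.1% and 37.8% in the eds1 line.

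A list of 26 genes that work with these receptors (co-receptors, cytoplasmic kinases, EDS1 partners, folding chaperones and others) had 25 members in at least 1 table. The missing one is BIR4. In the PBL19C3A line against WT, 21 of 25 rose, PBL19 with its transgene among them, 1 fell and 3 did not pass, beside 21.4% of all genes higher and 14.9% lower. Their median log2 fold change was 1.69, beside 0.02 over all genes tested. The 21 and this median include PBL20, which is listed only through the line where it is high. Of 24 tested in the sid2 line, 16 rose against WT, PBL19 again among them, 0 fell and 8 did not pass (12.1% of all genes higher, 4.05% lower). Between the sid2 and PBL19C3A lines 5 were lower, 0 higher and 19 without a call (1.98% of all genes lower, 0.651% higher). In the eds1 line against WT, 0 of 24 passed in edgeR and 3 had an unadjusted p under 0.05, with 0.16% of all genes called. The 3 include EDS1, mutated in this line (log2 difference -1.42 ± 0.29), and PBL19 with its transgene (2.49 ± 0.33). Both are also among the 24 genes of the comparisons that follow. Against the PBL19C3A line, 19 of 24 were lower in the eds1 line and 1 was higher, with 16.2% of all genes lower and 12.0% higher. Against the sid2 line, 13 were lower, 0 higher and 11 without a call, with 7.02% of all genes lower and 2.39% higher.

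The 6 partners with the largest change past the threshold in the PBL19C3A line were PBL19 itself, PBL20, PAD4, BDA1, CRT3 and BON1. PBL20, a cytoplasmic kinase related to PBL19, had 0 and 4 reads in WT against 59 and 43 in the PBL19C3A line, and passed into a table only there. Its change is thus given as a description. PAD4 stood at 3.79 and 6.45 FPKM in WT, 105 in both PBL19C3A libraries, 51.8 and 76.7 in the sid2 line, and 4.45 and 4.91 in the eds1 line, a log2 rise of 4.31 ± 0.30 in the PBL19C3A line (edgeR adjusted p = 0.000129). BDA1, an ankyrin-repeat protein that acts with RLP51, rose by 3.44 ± 0.67 (edgeR adjusted p = 0.00701), although RLP51 had no call. CRT3, a calreticulin that folds receptors in the endoplasmic reticulum, rose by 2.96 ± 0.12 and differed between the sid2 and PBL19C3A lines by -1.77 ± 0.11 (edgeR adjusted p 4.11e-05 and 0.00136). BON1, a copine that acts with BIR1, rose from 3.95 and 4.73 to 39.6 and 29.05 FPKM, by 2.93 ± 0.24 (edgeR adjusted p = 0.000253). It stood at 37.7 and 36.6 FPKM in the sid2 line, overlapping the PBL19C3A line (log2 difference 0.10 ± 0.22, edgeR adjusted p = 0.867).

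The SERK co-receptors were looked at after their values were seen. BAK1 (1.24 ± 0.16), BKK1 (2.05 ± 0.31) and SERK5 (1.69 ± 0.18) rose in the PBL19C3A line on the log2 scale, while SERK2 fell (-0.66 ± 0.11), with edgeR adjusted p of 0.00131, 0.00241, 0.000614 and 0.00351. That comparison with WT had 21.4% of all genes higher and 14.9% lower. BAK1 stood at 15.1 and 19.05 FPKM in WT against 43.7 and 39.1 in the PBL19C3A line. BAK1, BKK1 and SERK5 were also higher in the sid2 line than in WT (0.93 ± 0.16, 1.19 ± 0.30 and 1.09 ± 0.18, edgeR adjusted p 0.00828, 0.0360 and 0.00688). SERK2 and SERK1 had no call there (-0.16 ± 0.11 and -0.59 ± 0.39, edgeR adjusted p 0.354 and 0.343). Of all genes, 12.1% were higher and 4.05% lower in that comparison. SERK1, the fifth of the list, lay below WT in every library pair of the PBL19C3A line without a call (-0.99 ± 0.40, edgeR adjusted p = 0.0908). Such a position was held by 30.4% of all genes, with 40.2% above.

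**Figure D4:**
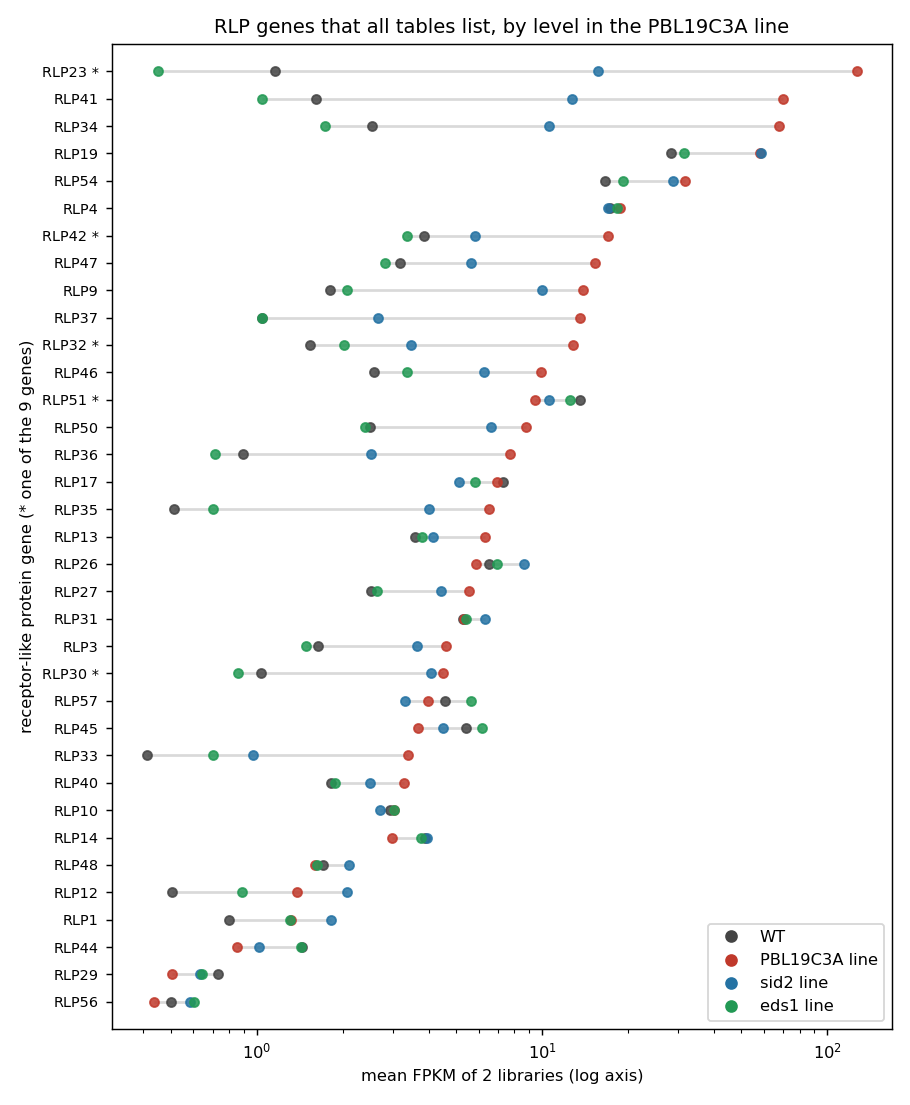
Mean FPKM of 2 libraries per genotype (log axis) for the 35 RLP genes listed in every table, with the 5 described here marked by an asterisk. RLP23 stood at 1.16 in WT against 127 in the PBL19C3A line.

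The wider RLP family offers a comparison within the gene class. Of 52 other RLP genes, 45 were in at least 1 table and 30 in all. A gene that is low in WT can be listed only through the lines where it is high, so the counts do not describe the family as a whole. Against WT, 29 of 43 tested rose in the PBL19C3A line, 2 fell (RLP14 and RLP45) and 12 did not pass, where 21.4% of all genes were higher and 14.9% lower. The median log2 fold change was 1.77, beside 0.02 over all genes. In the sid2 line 20 of 42 rose, 0 fell and 22 did not pass (12.1% of all genes higher, 4.05% lower). In the eds1 line 0 of 31 passed in edgeR, with 2 at an unadjusted p under 0.05 (0.16% of all genes called). Against the PBL19C3A line, 7 of 40 were lower in the sid2 line (RLP20, RLP34, RLP37, RLP38, RLP39, RLP41 and RLP47) and 0 higher (1.98% of all genes lower, 0.651% higher). In the eds1 line 16 of 30 were lower and 1 higher than in the PBL19C3A line (16.2% of all genes lower, 12.0% higher). Against the sid2 line, 9 of 31 were lower in the eds1 line and 1 higher (7.02% of all genes lower, 2.39% higher).

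The 6 largest changes of this family in the PBL19C3A line were of genes with few or no WT reads, which the table of the eds1 line does not list, so they are given as a description. RLP38, RLP39, RLP43 and RLP20 had 4 to 8 reads in each WT library and 696 to 1569 in each PBL19C3A library, with log2 fold changes of 8.05 ± 0.37, 7.80 ± 0.60, 7.01 ± 0.39 and 6.99 ± 0.32. RLP11 had 0 reads in WT against 285 in the PBL19C3A line, at least 105-fold higher against a floor of 3 counts over the group. RLP28 had 3 and 720 reads, a ratio of 266 with an exact 95% interval of 90.7 to 1294 that covers counting error only. Whether these changes differ in size from that of RLP23 was not tested.

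Chromosomal neighbours of the receptor genes showed mixed levels. RLP33 lies 101 bases from RLP32 and rose by 2.99 ± 0.44 in the PBL19C3A line, close to RLP32 itself (edgeR adjusted p = 0.00235). RLP31, 2589 bases from RLP30, had a difference of -0.04 ± 0.20 (edgeR adjusted p = 0.898), where RLP30 rose. RLP41, 3748 bases from RLP42, stood at 1.18 and 2.04 FPKM in WT against 63.5 and 76.6 in the PBL19C3A line, a rise of 5.40 ± 0.34 (edgeR adjusted p = 0.000101). In the sid2 line it stood at 10.9 and 14.7, lower than in the PBL19C3A line by -2.47 ± 0.29 (edgeR adjusted p = 0.0129). RLP40, 6713 bases from RLP42, rose by 0.80 ± 0.22 (edgeR adjusted p = 0.0276). RLP39, 14693 bases from RLP42, is given above among the largest changes of the family. RLP22, 3472 bases from RLP23, had 10 and 23 reads in WT against 211 and 241 in the sid2 line. Of the transgenic lines only the sid2 table lists it, so its log2 difference of 3.62 ± 0.46 is given as a description.

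Shared sequence limits some of these values. Of the 50-base words of the RLP42 transcript, 31.6% also occur elsewhere, mostly in RLP40 (866 words), with 90 in RLP39 and 70 in RLP41. Counts of RLP42 could thus be split or shared with these neighbours and are uncertain. In the PBL19C3A line RLP39 and RLP41 rose by 7.80 ± 0.60 and 5.40 ± 0.34, and RLP40 by 0.80 ± 0.22. Their part in the RLP42 rise was not tested. For RLP23 the share of such words was 0.393%, and it was 0 for the other 7 genes. SOBIR1 shares 478 exon bases with the antisense gene RAP (AT2G31890), which had a log2 difference of -0.35 ± 0.15 in the PBL19C3A line (edgeR adjusted p = 0.105), and 189 with AT2G08475. RLP32 shares 367 exon bases with the antisense gene AT3G01675. No source used here says whether counting used strand, so reads from such pairs cannot be told apart.

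Over the 8 libraries, the genes most like RLP23 by Pearson's r of log2(FPKM + 1), among 10572 genes with a mean of at least 10 FPKM in at least 1 genotype, were SAL2 (0.999), AT3G28540 (0.996), and RLP41, AT3G03560 and VSR6 (0.995 each). Those most like SOBIR1 were ADR1-L1 (0.997), HAF01, NPR1, NAC036 and AT3G11320 (0.995), and those most like BIR1 were FH4 (0.999), SPHK2 (0.998), AT2G19130, AT3G17410 and EXO70E2 (0.996). The libraries fall into 4 genotypes and share their depth scaling, and 636, 670 and 894 genes had an r above 0.95 with RLP23, SOBIR1 and BIR1, so these names describe a rank and nothing more.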

How the data were processed

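Rosette RNA was sequenced on 8 libraries, and reads were aligned with HISAT2 2.0.4 to TAIR10, per the submitters' processing notes. The counting tool, its use of strand and the step that dropped genes from a table are not given in the sources used here. The authors deposited raw read counts and FPKM values per gene and library, per the file headers, in 3 tables that each pair WT with 1 transgenic line. By name, the tables of the sid2 and eds1 lines set them against the PBL19C3A line, while their columns are headed as WT. The headers were followed. FPKM values also stand in a table per genotype. Values that stand in more than 1 file were compared (284202 in all), and 0 differed. Counts were tested with edgeR 4.0.16 (limma 3.58.1, R 4.3.3): TMM scaling, filterByExpr, quasi-likelihood F test with genotype as the term, and Benjamini-Hochberg adjustment over all genes of a comparison, threshold 0.05. Each gene was fitted with every library that lists it, so the groups share 1 estimate of the spread (biological coefficient of variation 18.1%). A gene absent from a table has no value there, not 0. The script was tested on simulated data. FPKM was used for levels and ratios. DESeq2 1.42.0, other filters, fits on 2 groups, leaving out each library and a replicate block were the alternatives. Libraries were grouped by the genotype in the labels. The 9 genes and all lists were chosen with earlier results of these data known. Of each list, the genes named were the 6 with the largest change past the threshold in the PBL19C3A line against WT, the RLP genes within 20 kb of one of the 9, and those singled out as chosen after their values were seen. The promoter of SOBIR1 is not reported here.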

Additional observations from a re-analysis of the deposited data

How the results depend on the processing

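All 7 calls of the PBL19C3A line against WT and all 7 of the eds1 line against the PBL19C3A line held in every alternative run, as did RLP23 in the sid2 line against either. Of the values of single genes among the 9, 693 kept direction and side of the threshold, 25 lost it, 22 gained it and 14 changed sign. DESeq2 called 92 genes for the eds1 line against WT (1 of the 9), 1377 for the sid2 line against the PBL19C3A line (5 of the 9) and 2572 for the eds1 against the sid2 line. Fits on 2 groups alone called 17 genes for the eds1 line against WT and 848 for the eds1 against the sid2 line. The numbers 1 and 2 pair no libraries by any label, and the differences between libraries 1 and 2 correlated across genotypes at 0.144 to 0.379 over 17327 genes. With the replicate block, 924 genes were called for the sid2 line against the PBL19C3A line, 2471 for the eds1 against the sid2 line, and 8 of the 9 genes for the sid2 line against WT, where RLP32 (1.1, adjusted p = 0.00532) and RLP42 (0.54, 0.0492) gained a call as higher and BIR3 (-0.49, 0.0195) as lower. For the PBL19C3A line against WT the block called all 9, RLP51 (-0.54, 0.0346) and BIR3 (-0.50, 0.00942) as lower.

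Leaving out 1 library at a time gave 3729 to 6287 genes for the PBL19C3A line against WT, 1187 to 2843 for the sid2 line against WT, 22 to 32 for the eds1 line against WT, 24 to 390 for the sid2 line against the PBL19C3A line, 2479 to 4543 for the eds1 line against the PBL19C3A line and 617 to 1398 for the eds1 against the sid2 line. Of the 9 genes, the same comparisons gave 7 to 8, 3 to 6, 0 to 0, 1 to 4, 7 to 7 and 3 to 6. The lone library left in a group was assumed to vary like the other groups, and fewer libraries give fewer degrees of freedom. Sign changes were all of genes without a call and all came from leaving out 1 library. Their ranges against WT were -1.05 to 0.028 (PBL19C3A line), -0.83 to 0.19 (sid2 line) and -0.81 to 0.46 (eds1 line) for RLP51, and in the eds1 line -0.85 to 0.066 for RLP30, -0.20 to 0.15 for BIR2 and -0.14 to 0.14 for BIR3. Against the PBL19C3A line, the sid2 line ranged over -0.22 to 0.63 for RLP51 and -0.23 to 0.28 for BIR3, and the eds1 line over -0.23 to 0.90 for RLP51. Between the eds1 and sid2 lines RLP51 ranged over -0.40 to 0.73. The cause was not tested.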
